A study of Danio rerio with 14 samples.

Results

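The comparison described here is that of eyes from zebrafish larvae exposed to tetrabromobisphenol A (TBBPA) with eyes from control larvae at 8 days post fertilization (dpf), after 3 days in clean water. It rests on the 4 arrays, of 14 in the series, on which a TBBPA sample and a control sample of 8 dpf were hybridised together. The remaining arrays entered the same model, 6 of them comparing the treatments at 5 dpf and 4 linking the ages. Transcript levels of all 17950 probes in the value table were compared.

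Larvae of the wild-type strain AB were raised in plates of 24 eggs from fertilization to 5 dpf in 200 µg/L TBBPA, a brominated flame retardant suspected of disturbing thyroid hormone action, or in control medium with 0 µg/L, which held the solvent dimethyl sulfoxide according to the methods. For each treatment 3 plates were sampled at 5 dpf and 3 more after the move to clean water, at 8 dpf, and the eyes of 10 larvae of a plate were pooled into 1 RNA sample. The 8 dpf groups thus had 3 TBBPA and 3 control samples, 6 of the 12 RNA samples in all. Replicates 1 of the TBBPA group and 3 of the control group were each on 2 of the 4 direct arrays, every other sample on 1 of them. A pool of whole eyes mixes many cell types, and fewer cells of a type and less RNA per cell cannot be told apart in these values.

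The eye of a larval zebrafish holds a retina rich in cones, whose outer segments carry opsins, the transducin G protein and the phosphodiesterase PDE6, while rods mature later. Retinal cells contain circadian clocks of their own. In such a clock the activators Clock and Bmal drive transcription of their own repressors, the Period and Cryptochrome proteins, and the nuclear receptors Nr1d1 and Nr1d2 (Rev-erb) repress the bmal genes. PAR bZIP factors such as Tef and Dbp carry the rhythm to output genes. Thyroid hormone is known in fish as a regulator of cone opsin choice and of eye growth.

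All values are log2 ratios of TBBPA over control, so that 1 is a doubling and -1 a halving. A probe was called when its adjusted p (limma, Benjamini-Hochberg over all probes) was under 0.05 and its absolute log2 fold change was over 0.75. In total 39 probes were called, 18 higher (0.1% of 17950) and 21 lower (0.117%) after TBBPA. They carried the names of 26 genes, 11 higher and 15 lower, and 4 called probes had no gene name here. At the adjusted p alone 250 probes passed, and 2104 had an unadjusted p under 0.05. All 39 probes had the same sign on the 4 direct arrays. The least-squares levels of the 3 control and 3 TBBPA samples did not overlap for 37 of them, as against 6.17% of all probes. Since the same arrays gave the call, this count only describes the called probes.

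The p-values of this model take arrays as replicates, and they measure the spread between arrays. When limma was run on the levels of the 12 RNA samples instead, with plates as replicates, 0 probes were called, 0 passed at the adjusted p alone, and 4.91% of all probes had an unadjusted p under 0.05. The lowest adjusted p among the named probes was then that of per1b, at 0.0828. A two-sided permutation test of 3 against 3 levels cannot go below 0.10. That smallest value was reached by all but 2 of the called probes, those of camkk1b and 1 of the 2 probes of opn1mw1, for which the groups overlapped. The levels are least-squares estimates from shared arrays and differ in precision, so this test is not exact. The fit with plates as replicates likewise took the levels as independent and equally precise.

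**Figure D1:**
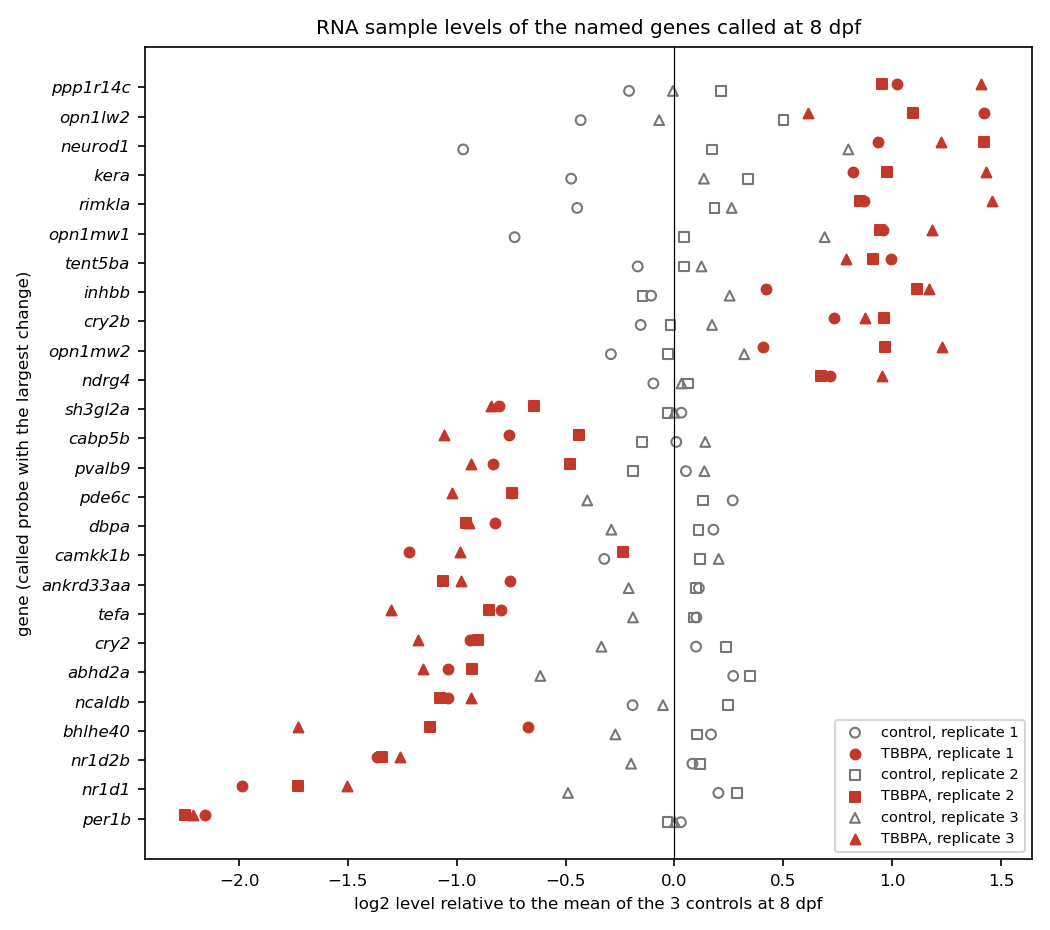
Level of each of the 6 RNA samples of 8 dpf (x axis, log2, relative to the mean of the 3 controls) for the 26 named genes called at 8 dpf, each shown by its called probe with the largest change. Open grey symbols are controls, filled red symbols TBBPA, and the shape gives the replicate. The TBBPA samples lay apart from the controls for every gene shown except camkk1b.

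Of the 15 named genes called lower, 7 are in the lists of clock repressors and clock output. These lists hold 21 and 9 of the 8948 genes measured, and their members were chosen with earlier results of these data known. The largest decreases of named genes were those of per1b, nr1d1, nr1d2b and bhlhe40. The transcript of per1b, a Period repressor of the clock, had ratios of -2.09 and -2.23 on the arrays with replicate 1 of TBBPA, -2.18 with replicate 3 and -2.28 with replicate 2. The 3 controls had levels of 0.03, -0.03 and 0.00, and the 3 TBBPA samples -2.16, -2.25 and -2.21. The gap between the groups was far wider than the spread within them. The fitted log2 fold change of per1b was -2.20 ± 0.23 (SE), 4.60-fold lower (adjusted p = 0.00126).

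For nr1d1, the gene of a Rev-erb nuclear receptor, the direct arrays gave -2.56, -1.90, -0.80 and -1.46. The controls lay at 0.20, 0.29 and -0.49 and the TBBPA samples at -1.99, -1.73 and -1.51, so that replicate 3 of the controls was the closest to the TBBPA group. The fitted value was -1.72 ± 0.34 (3.29-fold lower, adjusted p = 0.0231). Its relative nr1d2b was measured by 3 probes, which gave -1.31 ± 0.18, -0.80 ± 0.13 and -0.68, and the former 2 were called. The probe of nr1d2b with the largest change had levels of 0.08, 0.12 and -0.20 in the controls and -1.37, -1.34 and -1.26 in the TBBPA samples.

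The basic helix-loop-helix repressor bhlhe40 was lower at both of its probes (-1.10 ± 0.13 and -0.78 ± 0.10, adjusted p = 0.00128 and 0.00286). Levels at the former were 0.17, 0.10 and -0.27 in the controls and -0.67, -1.12 and -1.73 after TBBPA, and here the TBBPA samples themselves spread widely. The gene cry2, of the cryptochrome family and named cry3 by the platform, had direct ratios between -1.21 and -0.62. Its fitted change was -0.97 ± 0.11 (1.95-fold lower, adjusted p = 0.00128).

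Of the clock output factors, tefa was called lower at 2 of its 4 probes (-0.95 ± 0.15 and -0.92 ± 0.15), and its remaining probes gave -0.71 and -0.40. For dbpa 2 of 3 probes were called (-0.87 ± 0.16 and -0.83 ± 0.17), and the other gave -0.66. At both genes the levels of the 3 TBBPA samples lay below those of all controls.

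Over genes, with the probes of a gene averaged on each array, 66 of 8948 genes were higher (0.738%) and 77 lower (0.861%) at an adjusted p under 0.05 (limma), and the median of all genes was 0.01. Of the 21 measured genes of the clock repressor list 8 were lower and 1 higher, with a median of -0.18. The 8 were per1b, nr1d1, cry2, bhlhe40, nr1d2b, nfil3-6 (-0.68 ± 0.13), bhlhe41 (-0.62 ± 0.13) and cry5 (-0.52 ± 0.10). The last of them encodes a photolyase that repairs DNA in light. The list took in cryptochrome and photolyase genes as a family, so that not all of its members are repressors of the clock. For bhlhe41 the groups overlapped, with replicate 3 of the controls at -0.49 and replicate 1 of TBBPA at -0.43. The cryptochrome gene cry4 was higher (0.38 ± 0.08, adjusted p = 0.0312). The other 12 did not pass, among them per2 (-0.08), per3 (-0.46), per1a (0.21) and nfil3-5, which had the highest value of the list (1.46 ± 0.42, adjusted p = 0.114) with direct ratios between 0.28 and 3.09.

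None of 7 clock activators passed (median 0.14). The highest of them were rorcb (0.60 ± 0.18) and bmal1a (0.37 ± 0.12), with adjusted p = 0.148 and 0.174. Of 9 clock output genes, tefa (-0.74 ± 0.13) and dbpa (-0.79 ± 0.15) were lower. The gene of the melatonin-forming enzyme aanat2 was higher (0.58 ± 0.12, adjusted p = 0.0261), with levels of -0.43, 0.03 and 0.40 in the controls and 0.40, 0.60 and 0.93 after TBBPA, a narrow separation. With plates as replicates 1 of the 8948 genes passed, per1b (adjusted p = 0.0343). With the 4 direct arrays alone 5 of the 8948 genes passed (limma), and of the clock lists per1b alone did (adjusted p = 7.51e-05). In place of 9 genes of the repressor list, 2 passed without replicate 1 of TBBPA, and 4 without replicate 1 or 2 of the controls.

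**Figure D2:**
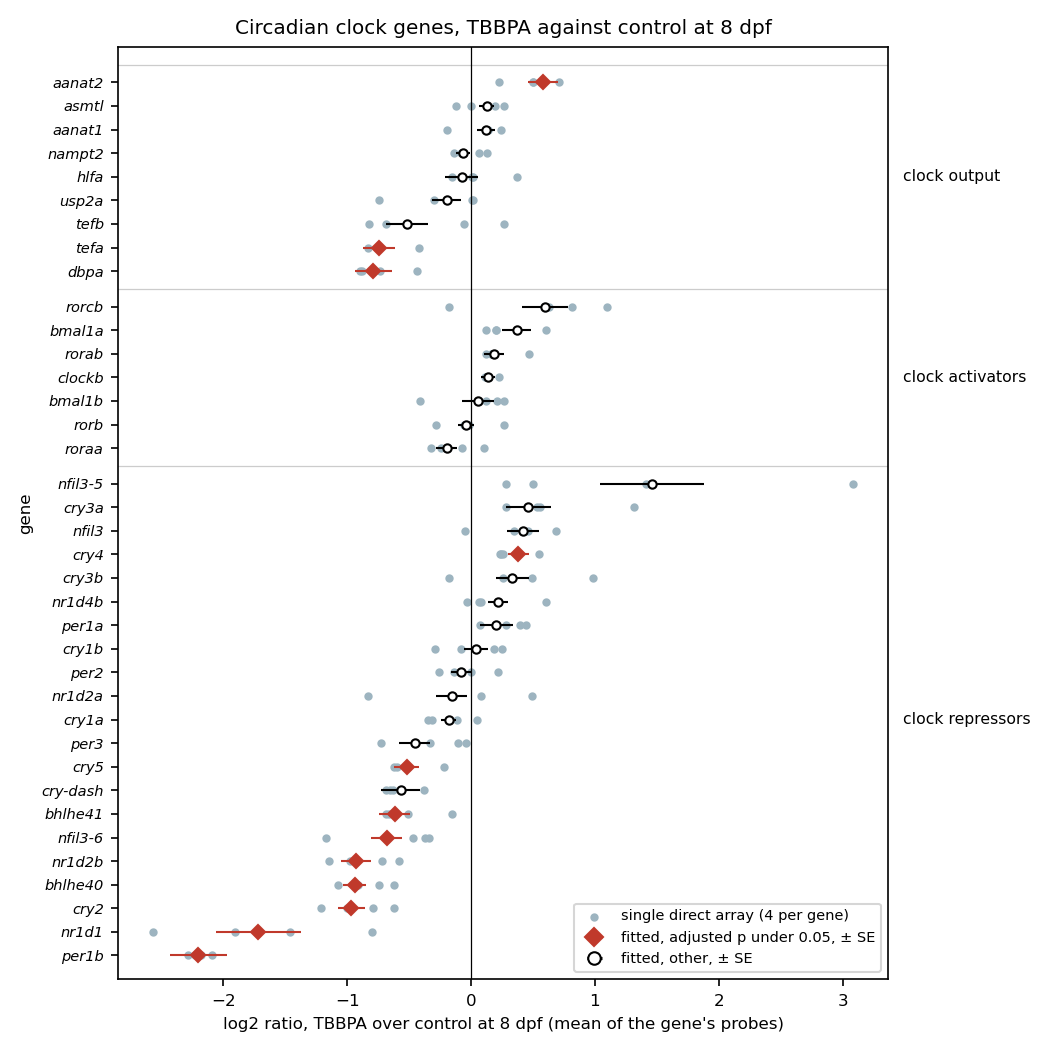
Log2 ratio of TBBPA over control at 8 dpf (x axis) for each measured clock gene, in 3 lists. Pale points are the 4 direct arrays, larger symbols the fitted value with its SE, red diamonds where the adjusted p was under 0.05. In the repressor list 8 red symbols lie below zero and 1 above, and no activator is red.

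A called probe that the platform names cry2b could not be matched by accession. This probe is not in the clock lists, so the list counts above do not hold it. It was higher (0.83 ± 0.18, adjusted p = 0.0332), with levels of -0.16, -0.02 and 0.17 in the controls and 0.73, 0.96 and 0.87 after TBBPA. It is not the cry2 probe described above, which was lower.

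Of the 11 genes called higher, 3 encode cone opsins. They belong to the cone list, 22 of the 8948 genes measured, which was also chosen with earlier results known. The red cone opsin opn1lw2 had direct ratios of 0.80, 1.97, 1.01 and 0.84 at its called probe, and its fitted change was 1.09 ± 0.22 (2.13-fold, adjusted p = 0.021). The controls spread from -0.43 to 0.50 and the TBBPA samples from 0.61 to 1.42, so that the groups were separate by a narrow margin. The other probe of opn1lw2 gave 0.70 (adjusted p = 0.205). There the groups overlapped, with controls from -0.97 to 1.09 and TBBPA samples from 0.06 to 1.54.

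For the green cone opsin opn1mw1 both probes were called (0.95 ± 0.22 and 0.78 ± 0.17). At the former the controls had levels of -0.73, 0.04 and 0.69 and the TBBPA samples 0.96, 0.94 and 1.18. At the latter, replicate 3 of the controls (0.73) was above replicate 1 of TBBPA (0.57), and the groups overlapped. The neighbouring green opsin opn1mw2 had levels of -0.29, -0.03 and 0.32 in the controls and 0.41, 0.97 and 1.23 after TBBPA at its called probe (0.79 ± 0.16, adjusted p = 0.0221). At its other probe, which gave 0.43 (adjusted p = 0.239), the groups overlapped. Green opsin genes are related copies, and whether their probes share signal was not tested.

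Not all cone genes were higher. Transcripts of pde6c, the catalytic subunit of cone phosphodiesterase, were lower (-0.79 ± 0.13, 1.73-fold, adjusted p = 0.00912), with levels of 0.27, 0.13 and -0.40 in the controls and -0.75, -0.75 and -1.02 after TBBPA. Over the 22 measured cone phototransduction genes 5 were higher, 2 lower and the median was 0.07. Of all genes 0.738% were higher and 0.861% lower. The higher were opn1lw2, opn1mw1, opn1mw2 (0.61 ± 0.11), the blue opsin opn1sw2 (0.47 ± 0.10) and the transducin gamma subunit gngt2a (0.63 ± 0.12). With its probes averaged, opn1mw2 overlapped between the groups, at 0.38 in replicate 3 of the controls and 0.25 in replicate 1 of TBBPA. The lower were pde6c and guca1c (-0.67 ± 0.10), which encodes an activator of guanylate cyclase. The ultraviolet opsin opn1sw1 (0.17) and the red opsin opn1lw1 (0.15) did not pass, nor did the cone transducin gnat2 (-0.15). A further green opsin, opn1mw3, was near zero (0.02) and did not pass either. Larger values that did not pass were those of pde6ha (-0.61), grk7a (-0.43), guca1g (-0.41), gucy2d (-0.37), rcvrna (0.47) and gngt2b (0.36). Of the 22 genes 13 had positive values.

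Of 20 rod phototransduction genes 17 had positive values, as did 4773 of all 8948 genes, and the median was 0.17. None was lower and 5 were higher, as against 0.861% and 0.738% of all genes. The higher ones were rom1a (0.53 ± 0.09) and rom1b (0.46 ± 0.07), whose proteins shape the rims of outer segment discs, pde6ga (0.39 ± 0.08) and pde6gb (0.52 ± 0.10), inhibitory subunits of PDE6, and the rod transducin subunit gngt1 (0.50 ± 0.12). The mean level of the 20 rod genes ran from -0.05 to 0.03 over the 3 controls. Over the TBBPA samples it ran from 0.14 to 0.27, and the groups did not overlap. List means also did not overlap for clock repressors, chaperones, retinal transcription factors and TGF-beta signalling. The same held for cartilage and bone, where 0 genes passed. Levels of the single genes did not overlap for 5 of the 20 rod genes and 12 of the 22 cone genes, as against 6.25% of all genes. With plates as replicates no cone or rod gene passed. Without replicate 1 of TBBPA 0 genes of either list passed, and without replicate 1 of the controls 1 cone gene and 0 rod genes. The rod opsin gene rho was not analysed here.

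**Figure D3:**
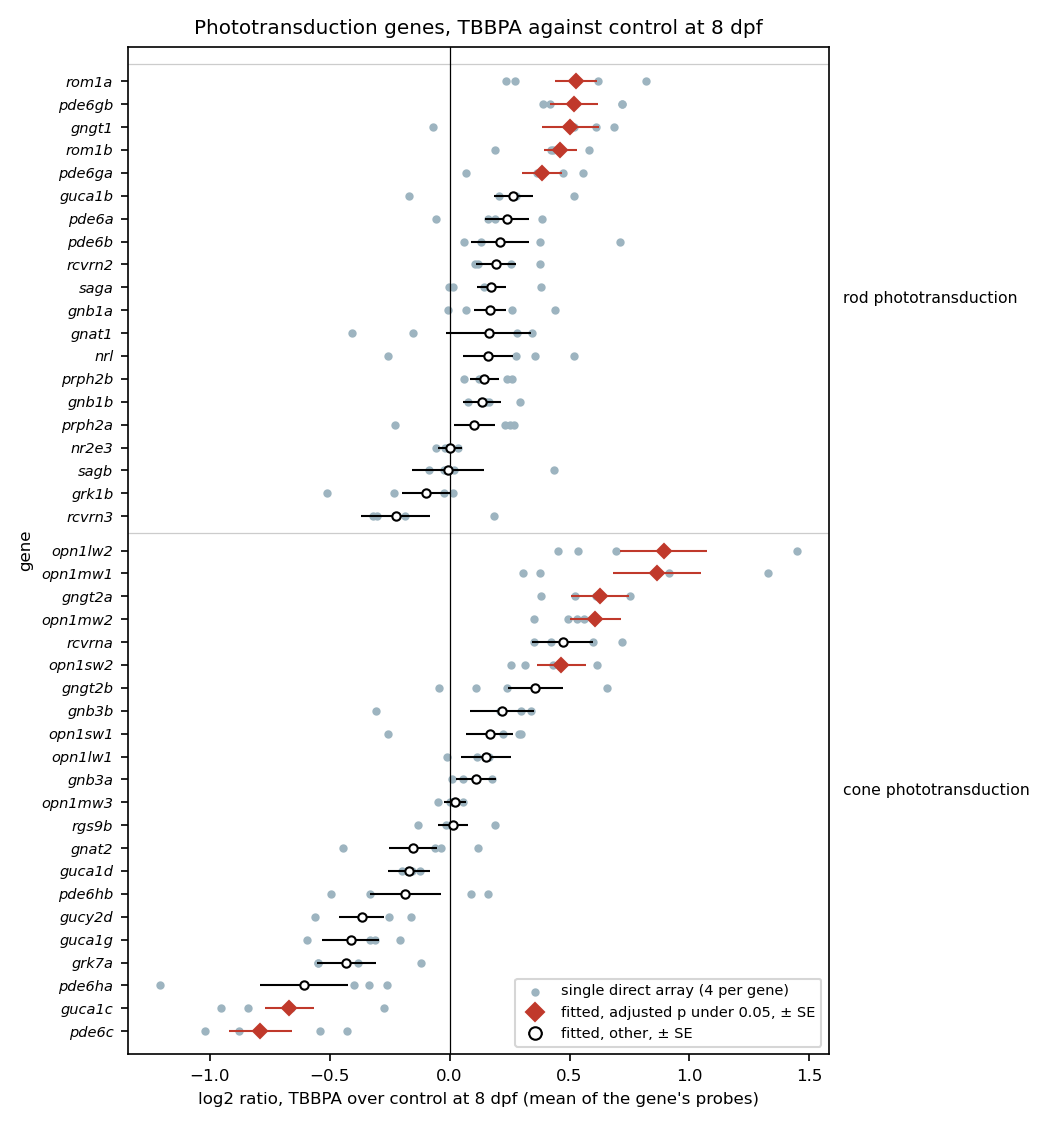
Log2 ratio of TBBPA over control at 8 dpf (x axis) for the 22 cone and 20 rod phototransduction genes, with the 4 direct arrays as pale points and the fitted value with its SE, red where the adjusted p was under 0.05. Cone genes passed on both sides of zero (5 higher, 2 lower), and rod genes on the higher side (5).

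Among the remaining genes called higher, kera encodes keratocan, a proteoglycan of the corneal stroma. It had direct ratios of 0.44, 1.34, 1.38 and 0.75, and levels of -0.47, 0.34 and 0.14 in the controls and 0.82, 0.98 and 1.43 after TBBPA (1.04 ± 0.12, 2.05-fold, adjusted p = 0.00128). It was the single gene to pass among 15 corneal stroma genes (median 0.01). The phosphatase inhibitor gene ppp1r14c was called at 3 of 4 probes, at 1.12 ± 0.14, 0.88 ± 0.11 and 0.78 ± 0.13. At the probe with the largest change its controls lay at -0.21, 0.22 and -0.01 and the TBBPA samples at 1.02, 0.95 and 1.41.

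For neurod1, a transcription factor of photoreceptor precursors, 1 of 2 probes was called (1.09 ± 0.24, adjusted p = 0.0406), and the other gave 0.74. At the called probe the array of TBBPA replicate 1 with control replicate 1 gave 2.01 and the other 3 arrays between 0.50 and 0.66. Its controls spread from -0.97 to 0.80. The gene neurod1 was the only one of 49 retinal transcription factors to pass at the level of genes (0.91 ± 0.19).

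Both called probes of rimkla, which encodes a ligase that makes the neuropeptide N-acetylaspartylglutamate, were about doubled (1.02 ± 0.15 and 0.98 ± 0.15), and its 3 other probes gave 0.29 to 0.63. The poly(A) polymerase family gene tent5ba was called at 2 of 3 probes (0.90 ± 0.13 and 0.80 ± 0.13). Its remaining probe gave 0.16, with overlapping groups. For ndrg4, 1 of 8 probes was called (0.77 ± 0.15), and the others ranged from 0.15 to 0.68. The activin subunit gene inhbb had levels of -0.11, -0.15 and 0.25 in the controls and 0.42, 1.11 and 1.17 after TBBPA at its called probe (0.83 ± 0.09, adjusted p = 0.00126), and its other probes gave 0.30 and 0.24. Of 39 genes of TGF-beta, activin and BMP signalling, inhbb and the inhibitory smad7 (0.35 ± 0.06) were higher and none was lower.

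Among the remaining genes called lower, the neurocalcin gene ncaldb had direct ratios between -1.11 and -0.91 (fitted -1.01 ± 0.13, adjusted p = 0.00286). Its controls lay between -0.19 and 0.25 and its TBBPA samples between -1.08 and -0.93. The bipolar cell gene cabp5b was lower (-0.77 ± 0.11), the only one of 41 genes of amacrine, bipolar and horizontal cells to pass (median -0.04). The parvalbumin gene pvalb9 was called at 1 of 2 probes (-0.77 ± 0.14). Its other probe gave -0.26, and there the groups overlapped. The endophilin gene sh3gl2a, which acts in synaptic vesicle recycling, was called at 1 of 2 (-0.77 ± 0.11), with -0.72 at the other.

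The hydrolase gene abhd2a was lower (-0.98 ± 0.17), with a control of replicate 3 (-0.62) near the TBBPA samples (-0.93 to -1.16). The ankyrin repeat gene ankrd33aa fell evenly on the direct arrays, between -0.98 and -0.74 (fitted -0.89 ± 0.13). The kinase gene camkk1b was called lower (-0.87 ± 0.14), but replicate 2 of TBBPA (-0.24) lay above replicate 1 of the controls (-0.32).

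The probes without a gene name included A_15_P432605, at -4.03 and -3.32 on the arrays with replicate 1 of TBBPA and -1.10 and -0.82 on the other arrays (fitted -2.11 ± 0.41, adjusted p = 0.0209). Replicate 1 of TBBPA (-3.57) was thus far below the other TBBPA samples (-0.83 and -1.51). The others were A_15_P686756 (-1.03 ± 0.17), A_15_P681476 (0.89 ± 0.15) and A_15_P289391 (0.81 ± 0.19).

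Few further lists held genes that passed. Of 35 genes of hypoxia and glycolysis, aldocb (-0.45 ± 0.09), pgk1 (-0.44 ± 0.10) and pkma (-0.32 ± 0.06), all glycolytic enzymes, were lower, and the stress gene ndrg1a (0.36 ± 0.08) was higher (median -0.09). Of 70 chaperone genes the heat shock factor hsf2 (-0.72 ± 0.15) and the mitochondrial chaperonin hspd1 (-0.62 ± 0.12) were lower. The isomerase gene rpe65a was the single member of 24 retinoid cycle genes to pass (-0.51 ± 0.11), sncgb that of 27 ganglion cell genes (-0.46 ± 0.09), klf2a that of 50 injury and regeneration genes (0.68 ± 0.12), and elovl4b, which elongates very long-chain fatty acids, that of 44 genes of lipid handling (0.33 ± 0.06).

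No gene passed in the lists of the thyroid hormone system (11 genes, median 0.02), xenobiotic metabolism (29, -0.01), oxidative stress response (41, -0.03), immune response and inflammation (22, 0.03), the cell cycle (53, 0.03), sterol synthesis (12, -0.01), pigment synthesis (15, -0.07) and Muller glia (20, 0.00). Values of largest size were those of the glutathione transferases gstp1.2 (-0.25) and gsta.1 (-0.24), the metallothionein mt2 (-0.37) and txnipa (0.34), cfd (-0.38) and nfkb2 (0.19), ube2c (0.25) and e2f4 (0.15), insig1 (-0.23) and hmgcs1 (0.11), gch2 (-0.32) and slc45a2 (-0.24), and rlbp1b (-0.49) and fabp7a (0.27), in the order of the 7 lists after the thyroid list. Not every listed gene was measured, in these lists and others. The thyroid list named 34 genes, of which 11 were measured, and the immune list 71, of which 22 were. In the thyroid list the receptor thraa had the lowest value (-0.27 ± 0.09, adjusted p = 0.154) and the deiodinase dio2 was at 0.17 (adjusted p = 0.174). The lens list of 57 genes had a median of 0.16 with 46 positive values and no gene past the threshold, and its mean level spread from -0.32 to 0.29 over the controls and from -0.07 to 0.39 over the TBBPA samples, which overlapped. Its largest values were those of grifin (0.80 ± 0.23, adjusted p = 0.110) and the crystallin crygm2d8 (-0.58 ± 0.24, adjusted p = 0.347).

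Markers of tissue other than eye were compared, since dissected eyes can carry some of it. The mean level of 54 skeletal muscle genes was -0.21 to 0.31 in the controls and -0.23 to 0.02 after TBBPA. Their median was -0.14, 7 of the 54 had positive values, and 1 gene passed, myhz1.1 (-0.47 ± 0.10). The surface epithelium list of 38 genes ran from -0.23 to 0.31 in the controls and from -0.24 to 0.08 after TBBPA. Its median was -0.09, 12 of the 38 had positive values, and 0 genes passed. The lists of exocrine pancreas (17 genes, median 0.01), liver and plasma (18, 0.07), blood (7, 0.03), cartilage and bone (20, 0.06) and brain outside the eye (22, 0.02) held 0 genes past the threshold. These spreads were as wide between plates of a group as between the groups in muscle and epithelium, and their part in the results was not tested. The 2 largest values in each of these lists were those of krt92 (-0.58) and cyt1l (-0.50) for epithelium, ela2 (0.15) and prss59.1 (0.09) for pancreas, fabp10a (0.50) and ambp (-0.40) for liver, hbae3 (-0.25) and hbae1.1 (0.21) for blood, col2a1a (0.20) and sox9b (0.20) for cartilage, and cart2 (-0.23) and npy (-0.18) for brain. The table holds ratios alone, so that how strongly eye markers or these were expressed cannot be read from it.

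**Figure D4:**
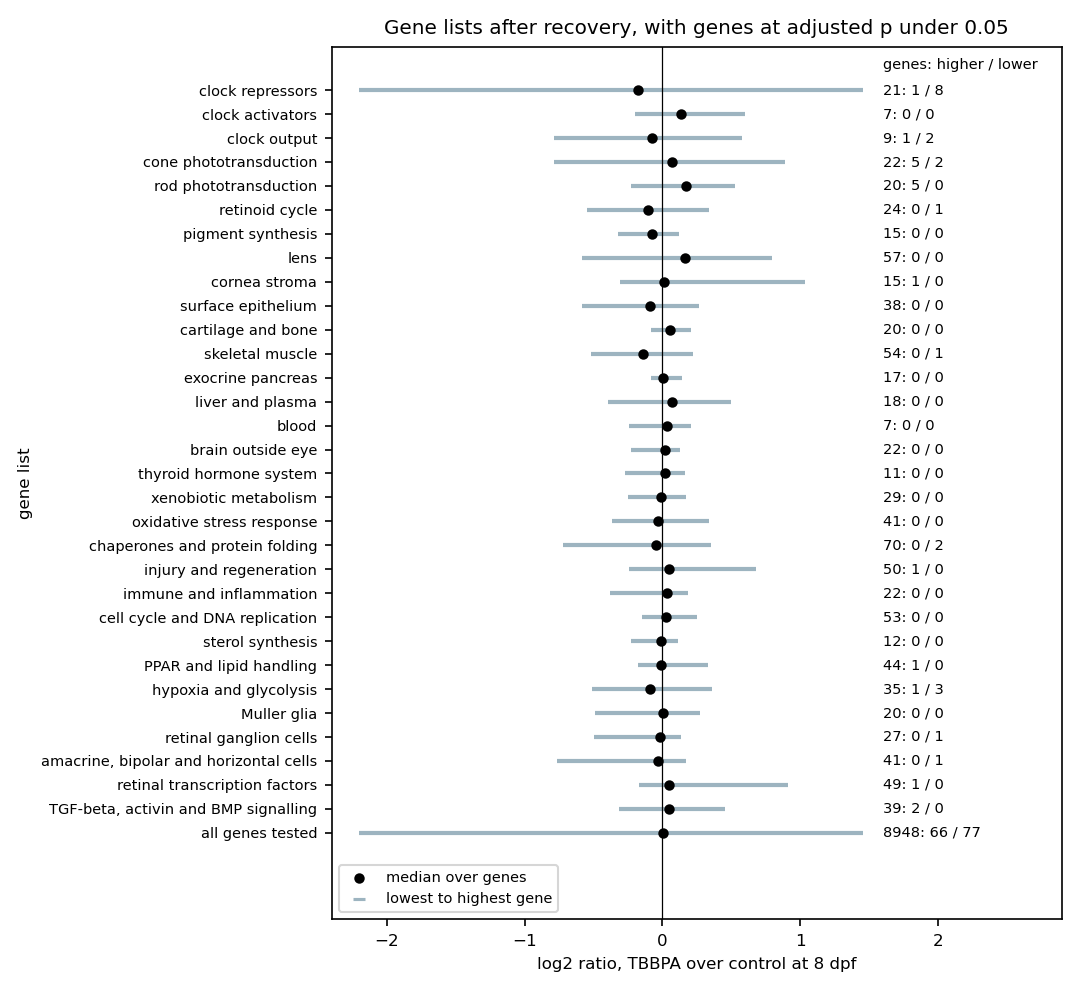
Log2 ratio of TBBPA over control at 8 dpf (x axis) for each gene list, as the range from the lowest to the highest gene with the median as a black point. Numbers at the right give the genes measured and those higher and lower at an adjusted p under 0.05. Clock repressors (1 higher, 8 lower), cone genes (5 and 2) and rod genes (5 and 0) hold the most genes that passed.

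The effect after recovery was set beside that at 5 dpf, the end of exposure, where 127 probes were called (0.708%). Of the 39 probes called at 8 dpf 18 were also called at 5 dpf. These 18 were 46.2% of the 8 dpf calls and 14.2% of the 5 dpf calls. Of the 39 probes 37 had the same sign at both ages, and of the 127 called at 5 dpf 83 did. The share of same signs over all probes was not counted. The sizes at both ages were alike for some probes and not for others. The value of per1b was -1.94 ± 0.20 at 5 dpf and -2.20 ± 0.23 at 8 dpf, that of nr1d1 -2.07 and -1.72, and that of opn1lw2 1.05 and 1.09. The differences between the ages did not pass for these genes (adjusted p = 0.786, 0.812 and 0.979). Other values were larger at 8 dpf, with -0.44 at 5 dpf and -1.10 at 8 dpf for bhlhe40, 0.41 and 1.12 for ppp1r14c and 0.54 and 1.02 for rimkla, and the unnamed A_15_P432605 was at 0.80 and -2.11. These differences did not pass either (adjusted p = 0.145, 0.148, 0.374 and 0.0645).

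The test of the difference itself, 8 minus 5 dpf, passed for 11 probes (0.0613%), 4 of them positive. At the level of genes it passed for 6 of 8948 (0.0671%). Among the positive ones a probe for inhbb was 0.07 ± 0.07 at 5 dpf and 0.83 at 8 dpf (difference 0.75 ± 0.12, adjusted p = 0.0237). The 2 other probes of inhbb (differences 0.27 and 0.23, adjusted p = 0.212 and 0.348) and the mean of all 3 (0.42, adjusted p = 0.0954) did not pass. A probe for rom1a went from 0.07 to 0.66 (difference 0.59 ± 0.10, adjusted p = 0.0475), and a probe that the platform names pde6g, a PDE6 inhibitory subunit, from -0.09 to 0.61 (difference 0.71 ± 0.11, adjusted p = 0.0237). The other probe with the platform name pde6g did not pass this test. At each of the 3 probes that passed, of inhbb, rom1a and pde6g, the 8 dpf levels of TBBPA lay above those of all controls.

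On the negative side the transcripts were higher after exposure and near zero or lower after recovery. The keratin gene krt17 was at 0.85 ± 0.06 at 5 dpf and -0.11 ± 0.08 at 8 dpf (adjusted p = 0.00162), and the sodium pump subunit atp1a1a.2 at 0.85 and -0.06 (adjusted p = 0.00601). Of cox6a2, a subunit of cytochrome c oxidase found in muscle, the values were 0.66 and 0.03, and of the cytochrome P450 gene cyp2y3 0.56 and -0.02. A probe of myhz1.1, a fast muscle myosin, changed sign, from 0.49 ± 0.12 to -0.68 ± 0.14 (difference -1.17, adjusted p = 0.0237), as did the unnamed A_15_P686756, from 1.05 to -1.03. At 5 dpf 525 of all 8948 genes were higher (5.87%) and 308 lower (3.44%). The muscle list had a median of 0.17 at that age, with 15 of 54 genes higher, and the surface epithelium list 0.36, with 20 of 38. In the cartilage and bone list 11 of 20 genes were higher at 5 dpf, and in the lens list 16 of 57. No gene of these lists was lower at 5 dpf. The difference between the ages passed for 1 gene of the epithelium list and 0 of the others. The exocrine pancreas list had all 17 genes lower at 5 dpf (median -1.09) and 0 at 8 dpf, and the difference passed for 0 of its genes.

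**Figure D5:**
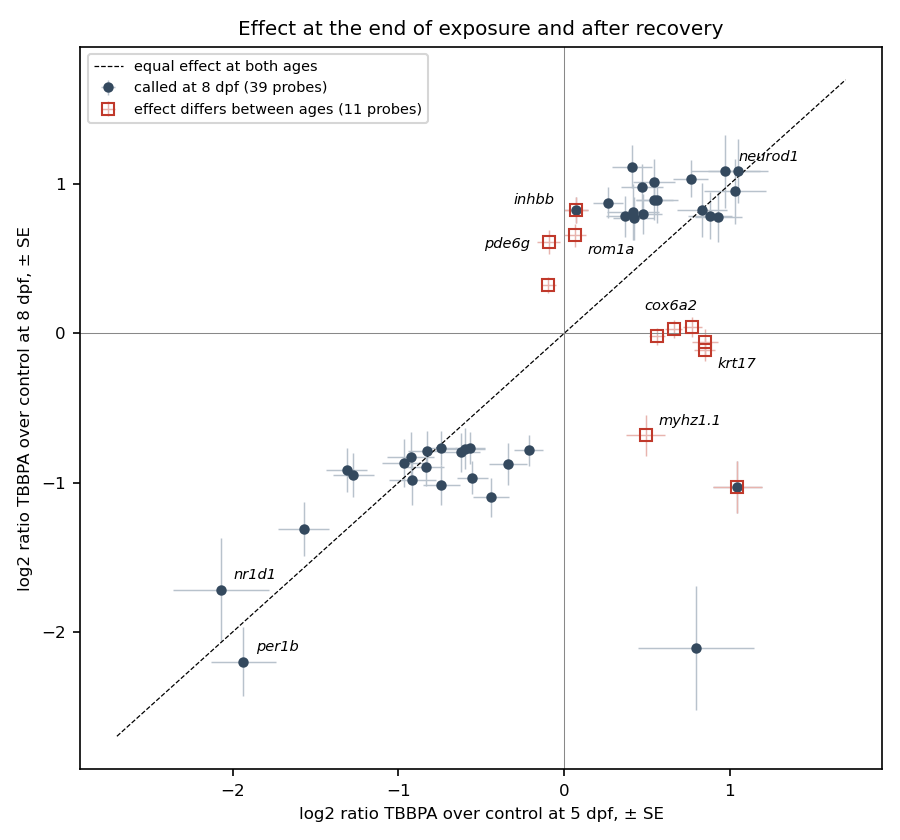
Log2 ratio of TBBPA over control at 8 dpf (y axis) against that at 5 dpf (x axis), with SE, for the 39 probes called at 8 dpf (filled points) and the 11 probes whose effect differed between the ages (open red squares). The dashed line marks equal effects. The probes of per1b, nr1d1 and neurod1 lie near it, while 5 of the 7 probes with a negative difference lie near zero at 8 dpf.

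The 3 controls spread in a recurring order over the called probes. Replicate 3 of the controls had the lowest control level at 14 of the 21 probes called lower (66.7%, as against 40.1% of all probes), and replicate 1 the lowest at 16 of the 18 called higher (88.9%, as against 33.5% of all probes). Replicate 3 had the highest control level at 12 of the 18 called higher (66.7%, as against 47% of all probes). It thus lay nearest to the TBBPA samples for many of the called repressors and for the called green opsins. According to the methods sampling was kept to a morning window to limit circadian effects, but the order in which plates were sampled is not in the labels, and its part in the clock values was not tested.

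Single samples also set how many probes were called. Without replicate 1 of the TBBPA group, which leaves 2 direct arrays, 6 probes were called, and 5 of the 35 named probes kept their call. Without replicate 2 of that group 97 were called and 34 of the 35 kept it, and without replicate 3 the numbers were 19 and 15. Leaving out controls of replicate 1, 2 or 3 left 14, 13 and 65 calls, with 11, 12 and 27 of the named probes kept. The log2 fold change of per1b stayed between -2.23 and -2.17 and remained called whichever 8 dpf sample was left out, while that of neurod1 ranged from 0.70 to 1.46 and that of opn1mw1, at its probe with the larger change, from 0.68 to 1.34.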

How the data were processed

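Eye RNA was labelled with Cy5 and Cy3 and hybridised in pairs to Agilent zebrafish arrays. According to the methods, the authors left out spots near the background, used a normal-exponential background correction and loess within arrays and fitted limma 3.34.4. What the authors deposited is a table of log2 ratios, 17950 probes by 14 arrays, without gaps. The table states neither base nor direction, and Cy5 over Cy3 was taken from the labels. With this direction the 53 cell cycle genes had a median of -0.62 in controls of 8 against 5 dpf; rho, meant as a second such check, was not analysed here. Array medians lay between -0.02 and 0.00. No column was unused (0).

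These ratios went unchanged into limma 3.58.1 (R 4.3.3): a coefficient per group, Cy5 coded positive and Cy3 negative, 14 arrays, 11 residual and 3.61 prior degrees of freedom, median residual SD 0.192. Tests were two-sided and Benjamini-Hochberg adjusted over all probes or genes. Each sample was labelled with both dyes, and 2 of the 4 direct arrays had TBBPA in Cy5. The REML share of variance of the RNA sample was 0, but 0.318 with a dye effect in the model. Sample levels are least-squares estimates with 12 sample coefficients. Scripts were tested on simulated data.

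Symbols were on 14135 probes (8948 genes), of which 12089 were matched by accession to RefSeq and 2046 kept the platform name, and 3815 were not named. Named are every called probe with a symbol and the 10 largest positive and negative differences between ages. From each of 31 lists the members that passed are named or, where none did, those of largest change. The genes per2, per1a, per3, gnat2, opn1sw1, opn1lw1, opn1mw3, pde6ha, grk7a, guca1g, gucy2d, rcvrna and gngt2b were added after their values were seen. All members and lists were chosen with earlier results of these data known. Alternatives were 4 direct arrays alone, a dye effect, a replicate block, plates as replicates, a fixed sample share of 0.5, scaling, array weights, other fold thresholds and leaving out each sample; a dye effect with the REML share was added after seeing the data.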

Additional observations from a re-analysis of the deposited data

Results flagged for a closer look

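At the called probe of neurod1, 1 of the 4 direct arrays stood far from the others, with 2.01 against 0.50 to 0.66, and the gap made up 0.895 of the range. Such a gap can arise by chance, and 39 called probes were looked at.

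The effect differed between the ages, in the test of the 8 minus 5 dpf difference, at 11 probes. The differences were -2.08 for the unnamed A_15_P686756, -1.17 for myhz1.1, -0.958 for krt17, -0.911 for atp1a1a.2, -0.733 for A_15_P248941, -0.632 for cox6a2, -0.583 for cyp2y3, 0.423 for A_15_P119715, 0.591 for rom1a, 0.705 for pde6g and 0.755 for inhbb. With plates as replicates 0 of them passed. For myhz1.1, the mean over its 6 probes differed by -0.58 between the ages (adjusted p = 0.0956), for rom1a that over 4 probes by 0.23 (adjusted p = 0.422), and for inhbb that over 3 probes by 0.42 (adjusted p = 0.0954), so these 3 results rest on single probes.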

How the results depend on the processing

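The counts depended on what was taken as a replicate. With limma on plates, 0 probes were called higher, 0 lower and 0 differed between ages; 882 had an unadjusted p under 0.05. With the 4 direct arrays alone 2 were called higher and 4 lower, and 5 differed (10 direct arrays). With an RNA sample share of 0.5 the counts were 6, 10 and 0. A dye effect with the REML share, added after seeing the data, gave 14, 21 and 6, and a dye effect alone 24 differing. Array weights gave 35 lower and 193 differing. The replicate block gave 20 higher, 29 lower and 74 differing, and kept all 35 named calls. The same-numbered samples of 8 dpf deviated with correlations of 0.68, -0.46 and 0.09. Samples hybridised together share the error of their array, and this held for replicates 1 and for replicates 3. Differently numbered samples that shared an array gave 0.49 and 0.59. These values therefore cannot decide whether the numbers pair the plates, and no pairing was used in the main fit.

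Without a fold threshold 125 were higher and 125 lower, 61 and 67 with a log2 threshold of 0.5, and 5 and 7 with 1. Differing probes numbered 5 with a threshold of 0.75 and 2 with 1. Leaving out samples gave 4 to 32 higher, 2 to 65 lower and 0 to 160 differing probes; the last fell to 0 without replicate 1 of the 5 dpf controls or TBBPA samples and reached 160 without replicate 3 of the 5 dpf controls. No named probe changed sign in any of the 20 settings (473 values kept the call, 227 lost it). The median of clock repressors lay between -0.45 (without control replicate 3) and -0.08 (without TBBPA replicate 1). Precision is limited by the few arrays, the cause of these shifts was not tested, and the depth of signal over background is not in the values used here.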

Other observations

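Genes outside the lists, picked after their values were seen, also passed at the level of genes. The retinal IMP dehydrogenase gene impdh1b was higher (0.53 ± 0.07, adjusted p = 0.00173), as were soul4 (0.48 ± 0.08), the retinoic acid-degrading cyp26a1 (0.50 ± 0.07), cerkl (0.28 ± 0.05) and nxnl2 (0.31 ± 0.07), the latter a thioredoxin-like gene of photoreceptors in mouse. The prolactin receptor gene prlra (-0.61 ± 0.11), the clock kinase csnk1db (-0.40 ± 0.07) and the brain-type creatine kinase ckbb (-0.48 ± 0.11) were lower. Levels of TBBPA and control samples did not overlap for any of these 8 genes, as against 6.25% of all genes. They were picked from genes that passed on the same arrays, so this only describes them. With plates as replicates none of the 8 passed.

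The 8 genes of the repressor list that were lower after TBBPA did not all change with age in controls. From 5 to 8 dpf nfil3-6 rose by 1.11, cry2 by 0.74 and bhlhe40 by 0.59 in controls (adjusted p = 0.000112, 0.000941 and 0.00201), while per1b (-0.11) and nr1d1 (0.17) did not pass. Over all 21 genes of that list the median of this change was 0.50. Over the 22 cone genes it was -0.61. The opsins that were higher after TBBPA fell with age in controls, opn1lw2 by 1.45, opn1mw1 by 1.07, opn1sw2 by 0.79 and opn1mw2 by 0.60. So did pde6c, which was lower after TBBPA, by 1.11, while gngt2a, which was higher after TBBPA, rose by 0.42.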
